A study of Mus musculus with 51 samples.

Results

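Basal cells sorted from the mammary glands of mice with the Y541S estrogen receptor were compared with Basal cells of D542G mice, both after giredestrant, across all genes. The members are 6 libraries of the 51 in the series, 3 titled Y541S and 3 titled D542G, taken by their titles for genotype, hormone pellets, giredestrant and sorted population. All 51 are bulk RNA-seq libraries of sorted mammary cells from mice aged 6 months. Every mouse carried pellets of estradiol and progesterone, so no group was without hormone. Giredestrant was given by mouth at 30 mg/kg daily for 4 days, and the other treatment was its vehicle. The groups used here are Y541S with giredestrant, D542G with giredestrant and WT with giredestrant, then Y541S, D542G and WT with vehicle, 3 Basal libraries each, beside the 3 mature luminal (ML) libraries of each mutant with giredestrant. Libraries titled LP and N, other sorted populations, entered only fits that held more libraries than those compared. The source name field calls every sample mature luminal. The titles and the cell type field of the Basal libraries say Basal, and these 2 were used. The sources used here do not say whether the mice were heterozygous, how the alleles were made or which libraries share an animal. The design text speaks of biological replicates, and the p-values below measure the spread between these samples.

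The estrogen receptor alpha, encoded by Esr1, is a hormone-dependent transcription factor whose last helix closes over bound estradiol and builds the surface for coactivators. Substitutions at the start of that helix are known from endocrine-resistant breast cancer and give the receptor activity without hormone. Giredestrant is an antagonist that occupies the pocket and promotes degradation of the receptor. Basal cells form the outer, contractile layer of the mammary epithelium, lie on the basement membrane and in the mouse are largely negative for Esr1, so that much of what hormone does to them is relayed by luminal neighbours. The 2 substitutions fall on neighbouring codons. The stretch of the Esr1 coding sequence that holds them is shown because it defines the groups, read from the GENCODE M21 transcripts (GRCm38, chromosome 10) as codons 534 to 549 of 599, with the codons that Y541S (TAT, tyrosine) and D542G (GAC, aspartate) replace, unmutated, in capitals.
Esr1 codons 534 to 549: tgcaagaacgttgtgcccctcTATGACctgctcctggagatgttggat

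Total counts were 43.3 to 60.1 M in the Y541S giredestrant libraries and 24.5 to 35.5 M in the D542G giredestrant libraries. The basal label held in all 6. The keratin Krt14 had 5434, 6075 and 5735 CPM (counts scaled to library size) in Y541S and 8597, 9617 and 12455 CPM in D542G, and the smooth muscle actin Acta2 had 15841, 11010.0 and 11565 CPM in Y541S and 8508, 11256 and 15672 CPM in D542G. Luminal transcripts were present at lower levels and were not even across libraries. The summed CPM of 13 pan-luminal markers, of which 12 were tested, was 2392, 3547 and 3364 in Y541S against 5093, 5396 and 3006 in D542G. That of 13 mature luminal markers was 346, 435 and 536 in Y541S against 940.2, 1031 and 455 in D542G. D542G libraries 1 and 2 thus stood above D542G library 3, which lay inside the Y541S range. The sum of 12 endothelial markers was 1085, 1127 and 450.3 CPM in Y541S and 962, 592 and 499 CPM in D542G. Defining markers of T cells (Cd3e), adipocytes (Adipoq, Plin1) and skeletal muscle (Ckm, Acta1) were between 0 and 2.87 CPM in these 6 libraries. The summed immune markers were 372 to 713 CPM in Y541S and 536 to 790.0 CPM in D542G, the summed adipocyte markers 176 to 443 CPM in Y541S and 221 to 513 CPM in D542G, and by edgeR no member of either list was called. In bulk samples fewer cells of a type and less RNA per cell cannot be told apart.

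A difference that ran with transcript length came with the genotype difference. With genes in 5 classes of equal size by their longest transcript, the median log2 difference, Y541S minus D542G, was -0.21 in the shortest class, -0.15, -0.04 and 0.09 in the next 3, and 0.24 in the longest. Of the genes called different, 33 of the shortest class were higher and 253 lower, whereas 596 of the longest class were higher and 50 lower. In each library the median log2 level of the longest class minus that of the shortest, relative to the mean over Basal libraries, was 0.39, 0.61 and 0.46 in Y541S with giredestrant. It was 0.16, -0.075 and -0.072 in D542G with giredestrant, and -0.003 to 0.10 in WT with giredestrant. Among the giredestrant libraries those of Y541S were therefore the ones set apart. With vehicle this value was 0.059, -0.053 and -0.261 in Y541S and -0.332, -0.259 and -0.007 in D542G, where the genotypes overlapped. WT with vehicle had -0.331, -0.275 and -0.109. In ML cells with giredestrant the same trend was seen, from -0.27 in the shortest class to 0.24 in the longest. Its part in the results was not tested, and values with each library's length trend removed are given below.

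**Figure D1:**
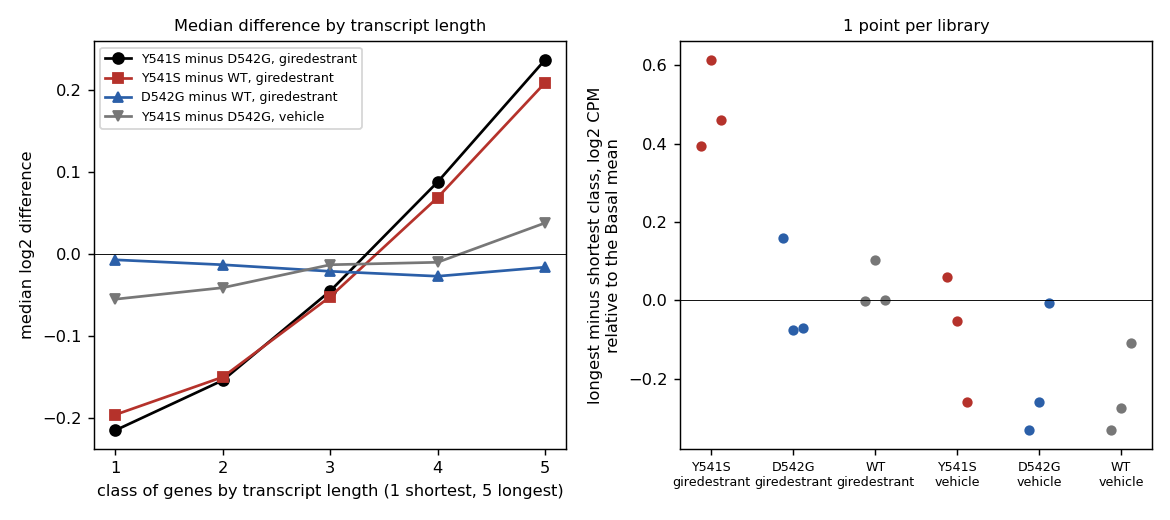
Left, median log2 difference over genes in 5 classes of transcript length for 4 Basal comparisons. Right, each library's median log2 CPM of the longest class minus the shortest, relative to the Basal mean, 1 point per library. The 3 Y541S giredestrant libraries lie at 0.39 to 0.61 and the D542G giredestrant libraries at -0.075 to 0.16.

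Of 17173 genes tested, 1760 (10.2%) differed between Y541S and D542G Basal cells with giredestrant, 1066 (6.21%) higher and 694 (4.04%) lower in Y541S, by edgeR's quasi-likelihood test at a Benjamini-Hochberg adjusted p under 0.05. Libraries of the 2 groups did not overlap, with Y541S above, for 2915 genes (17.0%) and, with Y541S below, for 2527 (14.7%). Of the 1760 called genes 1719 showed no overlap, so a lack of overlap given below adds little to a call. With vehicle none of the 17173 was called (0.0%), while 1810 had an unadjusted p under 0.05, and DESeq2 called 123. The giredestrant count depended on which library was left out. It was 661 without Y541S library 1, 864 without Y541S library 2 and 962 without Y541S library 3. It was 1383 without D542G library 1, 310 without D542G library 2 and 1673 without D542G library 3. Without Y541S libraries 1 and 2 together, which leaves 1 Y541S library assumed to vary like the rest, 22 genes were called. After removal of the length trend 438 genes were higher and 516 lower, and 709 of the 1760 were called in the same direction.

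**Figure D2:**
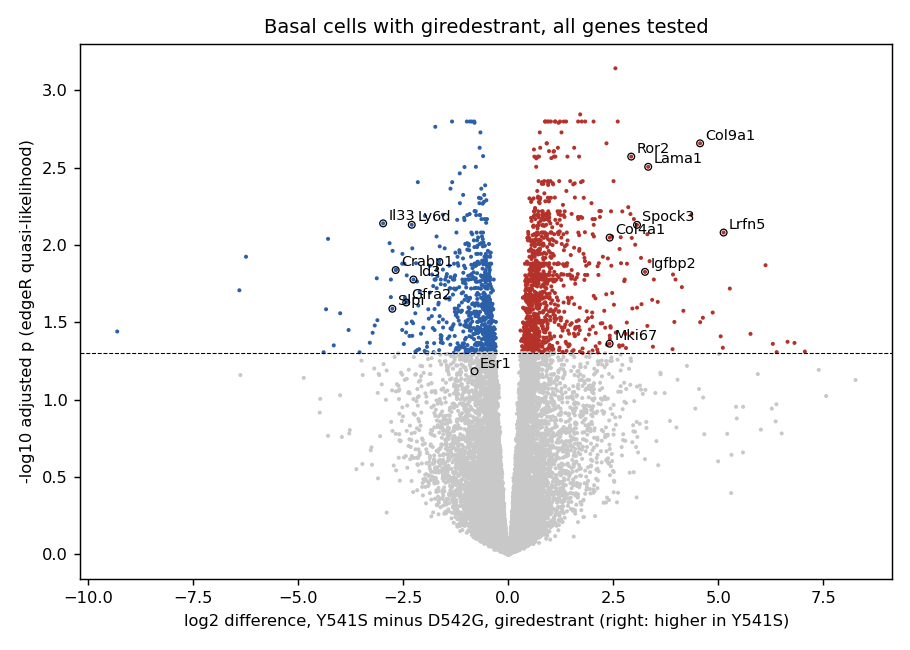
Each point is 1 of the 17173 genes tested in Basal cells with giredestrant. The x axis is the log2 difference, Y541S minus D542G, the y axis is -log10 of the adjusted p, the dashed line is adjusted p = 0.05, and red and blue mark genes called higher and lower in Y541S. Col9a1 at 4.57 and Lama1 at 3.33 stand far to the right, and Il33 at -2.98 to the left.

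Esr1 itself (chr10:4611593-5005614) had 26.2, 49.7 and 33.7 CPM in Y541S and 82.5, 71.2 and 37.5 CPM in D542G with giredestrant. D542G libraries 1 and 2 were above every Y541S library, and D542G library 3 lay among them. The log2 difference was -0.80 ± 0.27 with adjusted p = 0.0654 (edgeR), and -1.09 with adjusted p = 0.0285 after removal of the length trend. With giredestrant, Esr1 and the luminal marker sums given above were both highest in D542G libraries 1 and 2. Esr1 is itself 1 of the 13 mature luminal markers, so that sum is not independent of it. The part of luminal cells was not tested. WT had 41.4, 31.4 and 29.3 CPM with giredestrant. With vehicle, Y541S had 19.2, 15.0 and 17.7 CPM and D542G 23.0, 22.5 and 23.5 CPM. Counts per gene cannot check a point substitution, so the genotype rests on the labels.

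Of 23 tested targets of the estrogen receptor, 3 were higher and 1 lower in Y541S, against 6.21% higher and 4.04% lower over all genes. Their median log2 difference was 0.14 against -0.02 over all genes. Car12, a carbonic anhydrase, had 55.5, 44.7 and 53.2 CPM in Y541S and 17.2, 17.3 and 17.0 CPM in D542G, and rose by 1.57 ± 0.33 on the log2 scale (adjusted p = 0.0104, edgeR). Every Y541S library was above every D542G library. Igfbp4, a secreted binder of insulin-like growth factors, had 273, 189 and 258 CPM in Y541S and 129.8, 103 and 105 CPM in D542G. Its difference was 1.08 ± 0.22 (adjusted p = 0.00934, edgeR), also without overlap. The coactivator-like target Greb1 had 32.3, 21.6 and 9.12 CPM in Y541S and 11.1, 7.3 and 6.85 CPM in D542G, where Y541S library 3 lay inside the D542G range (1.32 ± 0.34, adjusted p = 0.0235, edgeR). The retinoic acid receptor Rara was lower, with 47.2, 48.3 and 43.0 CPM in Y541S and 68.3, 84.4 and 76.9 CPM in D542G. By edgeR none of 12 targets of the progesterone and glucocorticoid receptors was called. The threshold was missed by all 4 named here without D542G library 2 (adjusted p 0.0517 to 0.132), and Greb1 and Rara without D542G library 3 (0.0628 to 0.0668). Calls were lost for Greb1 and Rara without Y541S library 1 (0.0881 to 0.126), and Greb1 and Rara without Y541S library 2 (0.0603 to 0.0741). No call remained for Rara without Y541S library 3 (0.107). Other settings that ended a call were removal of the length trend for Greb1 (0.0909), a fit of the 6 libraries alone for Greb1 (0.0858), and a fit of all 51 libraries for Igfbp4 and Greb1 (0.0976 to 0.126). Without D542G library 2 none of the 23 was called.

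The next genes are those of the basement membrane and hemidesmosome, the sheet of type IV collagen, laminin, nidogen and perlecan under the basal layer and the receptors that bind it. Of 23 members tested, 12 were higher in Y541S and none lower, against 6.21% higher over all genes, with a median log2 difference of 0.70. Their summed level was 18456, 16444 and 18176 CPM in Y541S and 7050.0, 6220.5 and 11444 CPM in D542G with giredestrant. All 3 Y541S libraries were above the highest D542G library, which was library 3. With giredestrant, WT had 6893, 6286 and 7683 CPM. The sums with vehicle were 9068, 8777 and 10272 CPM in Y541S and 8654, 10518 and 13813 CPM in D542G, where the 2 ranges overlapped.

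Promoters of 4 called members are shown because these genes moved together and because Col4a1 and Col4a2, which code for the 2 chains of the common type IV collagen, start back to back and share 78 bases of their windows. Each window is RefSeq's (GRCm38.p6), 250 bases before to 50 after the start, written 5′ to 3′ on the gene's own strand, with each match to the GC box GGGCGG on either strand in capitals.
Col4a1 promoter (chr8:11312777-11313076, minus strand): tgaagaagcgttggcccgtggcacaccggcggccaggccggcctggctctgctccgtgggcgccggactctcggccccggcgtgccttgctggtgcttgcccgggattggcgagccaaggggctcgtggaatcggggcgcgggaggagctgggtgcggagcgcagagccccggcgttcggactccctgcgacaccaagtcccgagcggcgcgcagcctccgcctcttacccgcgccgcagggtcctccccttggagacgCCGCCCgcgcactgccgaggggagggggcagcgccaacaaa
Col4a2 promoter (chr8:11312555-11312854, plus strand): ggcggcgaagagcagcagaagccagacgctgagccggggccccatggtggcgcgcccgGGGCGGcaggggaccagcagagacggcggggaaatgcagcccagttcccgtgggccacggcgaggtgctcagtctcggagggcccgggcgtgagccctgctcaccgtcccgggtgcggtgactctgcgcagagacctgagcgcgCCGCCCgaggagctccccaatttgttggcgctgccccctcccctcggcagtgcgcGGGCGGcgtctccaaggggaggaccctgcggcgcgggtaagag
Nid1 promoter (chr13:13437352-13437651, plus strand): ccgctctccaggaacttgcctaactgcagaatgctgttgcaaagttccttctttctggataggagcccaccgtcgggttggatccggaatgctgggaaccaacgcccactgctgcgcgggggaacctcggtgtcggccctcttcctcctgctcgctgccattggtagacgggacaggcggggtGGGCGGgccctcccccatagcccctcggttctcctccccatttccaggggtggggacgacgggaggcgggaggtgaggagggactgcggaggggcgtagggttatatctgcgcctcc
Lamb1 promoter (chr12:31265043-31265342, plus strand): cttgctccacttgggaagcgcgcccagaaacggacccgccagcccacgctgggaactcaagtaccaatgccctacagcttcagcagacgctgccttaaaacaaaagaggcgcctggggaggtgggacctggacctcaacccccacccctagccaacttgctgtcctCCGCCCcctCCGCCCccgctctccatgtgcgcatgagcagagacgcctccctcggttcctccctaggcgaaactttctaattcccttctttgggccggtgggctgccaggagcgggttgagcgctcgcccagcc
Col4a1 held 1 match, Col4a2 3, Nid1 1 and Lamb1 2. The Col4a1 match lies in the stretch shared with Col4a2 and is 1 of the 3 Col4a2 matches, read on the other strand, and within a window no match overlapped another. A match was found in 35.7% of all 32851 windows of 300 bases. The palindromic consensus estrogen response element, searched without a mismatch on both strands, was in none of the 4 and in 0.07% of all windows. A match is a description of these letters and not a measured site.

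The largest difference among them was in laminin. Lama1, the alpha 1 chain typical of early and glandular basement membranes (chr17:67697259-67822647), had 802, 511 and 621 CPM in Y541S and 56.0, 27.6 and 107 CPM in D542G, a log2 difference of 3.33 ± 0.53 (adjusted p = 0.00312, edgeR). Lamc1, the gamma 1 chain of most laminins, had 1369, 1086 and 1349.7 CPM in Y541S and 307, 243 and 536 CPM in D542G (1.80 ± 0.31, adjusted p = 0.00495, edgeR). In both genes the Y541S libraries lay above every D542G library. The laminin chains Lama4, Lamb1 and Lamb2 were also higher, by 1.67, 1.34 and 0.70. Of laminin 332, which anchors hemidesmosomes, the chains Lama3, at 0.65, and Lamb3, at 0.33, were not called.

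Type IV collagen showed the highest D542G value in the same library. Col4a1 (chr8:11198423-11312826) had 3809.9, 2630.5 and 3298 CPM in Y541S and 422, 301 and 1087 CPM in D542G, and Col4a2 had 1917, 1473 and 1740.5 CPM in Y541S and 355, 276 and 816 CPM in D542G. The log2 differences were 2.41 ± 0.49 (adjusted p = 0.00895) and 1.81 ± 0.39 (adjusted p = 0.0121, edgeR), with no overlap of the groups. Col4a5, an X-linked type IV chain, was higher by 1.09. Nid1, the link between laminin and collagen IV, had 323, 345 and 311 CPM in Y541S and 103, 76.6 and 122 CPM in D542G (1.69 ± 0.26, adjusted p = 0.00268, edgeR). Hspg2, which codes for perlecan, had 351, 260.2 and 340.1 CPM in Y541S and 122, 132 and 205 CPM in D542G (1.04). Col7a1, the anchoring fibril collagen, had 702, 664 and 872 CPM in Y541S and 147, 135 and 332 CPM in D542G (1.85 ± 0.41, adjusted p = 0.0136, edgeR). In all 6 of these genes D542G library 3 was the highest of its group, and still below every Y541S library.

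Among the receptors, the laminin-binding integrin Itga6, whose protein is used to sort basal cells, had 1526, 1306 and 1187 CPM in Y541S and 601, 549 and 744 CPM in D542G (1.08 ± 0.16, adjusted p = 0.00249, edgeR). Its partners Itgb4, at -0.07, and Itgb1, at 0.30, and the hemidesmosomal Col17a1, at 0.31, and Dst, at -0.19, were not called. The count of called members was 7 without D542G library 2 and 11 to 17 without any other of the 6 libraries. It was 0 when Y541S libraries 1 and 2 were left out together, with a median of 0.89. After removal of the length trend 9 of the 23 were called higher, with a median of 0.45. The list's median transcript length was 6450 bases. Short of the threshold fell Col4a1, Col4a2, Col4a5, Hspg2 and Col7a1 without D542G library 2 (adjusted p 0.0517 to 0.0786), and Col4a5 without Y541S library 1 (0.0508). Beyond the libraries, calls ended under removal of the length trend for Lamb2, Col4a5 and Hspg2 (0.0577 to 0.0584). Endothelial cells and fibroblasts also make such proteins. None of 12 endothelial markers was called by edgeR, and they summed to 1085, 1127 and 450.3 CPM in Y541S and 962, 592 and 499 CPM in D542G. The summed fibroblast markers were 1977, 1939.9 and 1459 CPM in Y541S and 1130.5, 727 and 719 CPM in D542G. The part of either cell type in this result was not tested.

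**Figure D3:**
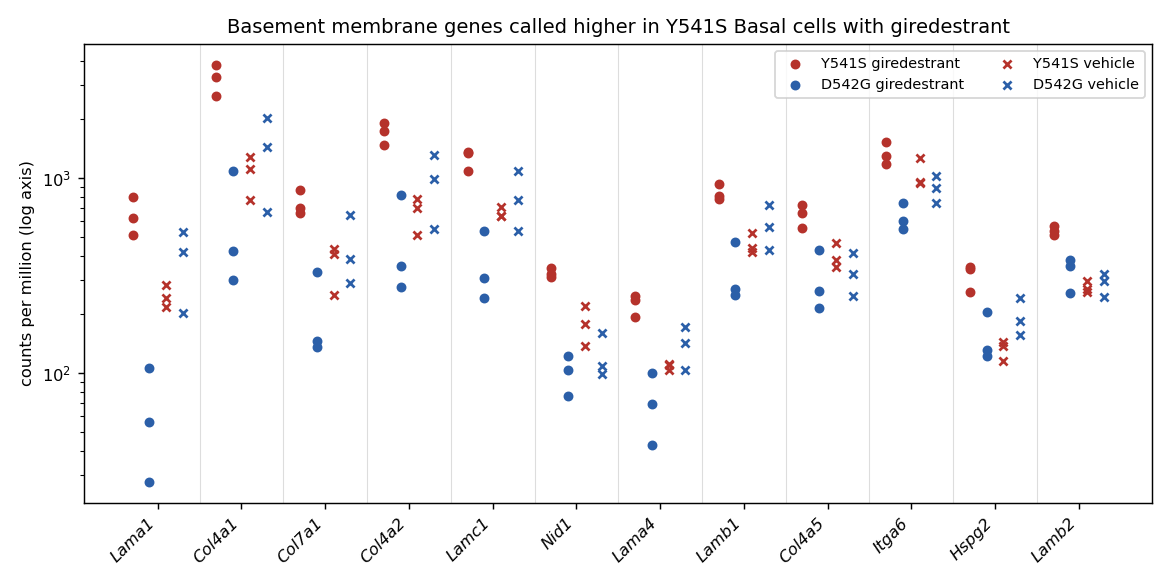
Level in every library, in CPM on a log axis, of the 12 basement membrane genes called higher in Y541S with giredestrant. Filled circles are giredestrant and crosses vehicle, red Y541S and blue D542G. Lama1 lies at 511 to 802 CPM in Y541S and 27.6 to 107 CPM in D542G with giredestrant.

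Col9a1, Col11a1 and Lrfn5 were among the genes with the largest rises in Y541S, picked only from genes whose libraries did not overlap. Col9a1, a fibril-associated collagen (chr1:24177610-24252684), had 164, 100.3 and 140.0 CPM in Y541S and 4.41, 3.88 and 8.57 CPM in D542G, a log2 difference of 4.57 ± 0.67 (adjusted p = 0.0022, edgeR). Col11a1, a fibrillar collagen of cartilage, had 115, 75.0 and 143 CPM in Y541S and 12.6, 4.5 and 16.2 CPM in D542G (3.31 ± 0.66, adjusted p = 0.00851, edgeR). In both genes the lowest Y541S library was several-fold above the highest of D542G. Lrfn5, a synaptic adhesion molecule (chr12:61523150-61858342), had 16.0, 8.61 and 12.7 CPM in Y541S and 0.0873, 0.0978 and 0.827 CPM in D542G (5.13 ± 1.01, adjusted p = 0.0083, edgeR). Lamp5, of the family of lysosomal membrane proteins, had 24.2, 10.4 and 18.9 CPM in Y541S and 0.262, 0.163 and 2.51 CPM in D542G (4.13). These 2 were near the limit of counting in D542G libraries 1 and 2. Spock3, a testican proteoglycan, was higher by 3.06, and Spsb4, a SOCS box protein, by 2.95.

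Ror2, a receptor tyrosine kinase for Wnt5a, had 54.4, 26.3 and 29.7 CPM in Y541S and 4.5, 5.12 and 4.8 CPM in D542G (2.93 ± 0.45, adjusted p = 0.00268, edgeR). The D542G libraries were close to each other. Capn6, a calpain without protease activity, had 503, 306 and 358 CPM in Y541S and 48.5, 36.7 and 90.9 CPM in D542G (2.71 ± 0.49, adjusted p = 0.00606, edgeR). The cyclic nucleotide phosphodiesterase Pde3a had 37.1, 16.3 and 38.8 CPM in Y541S and 3.19, 5.97 and 3.04 CPM in D542G (2.91). With vehicle the genotypes overlapped in both of the genes looked at here. Ror2 had 34.1, 33.9 and 22.5 CPM in Y541S and 8.69, 30.7 and 29.9 CPM in D542G, and Col9a1 had 99.1, 47.9 and 108 CPM in Y541S and 23.3, 89.5 and 127 CPM in D542G. Not called were Lamp5 without D542G library 1 (adjusted p 0.0587), and Lrfn5, Lamp5, Col11a1, Igfbp2, Spock3 and Spsb4 without D542G library 2 (0.0513 to 0.11). Calls ended for Spsb4 without D542G library 3 (0.0732), and Lamp5, Igfbp2 and Spsb4 without Y541S library 1 (0.0565 to 0.0656). An adjusted p above the threshold was found for Spsb4 without Y541S library 3 (0.0673).

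In the insulin-like growth factor axis 5 of 13 tested members were higher and 1 lower, against 6.21% and 4.04% over all genes. The members' median was 0.44. Igfbp2, a secreted binder of these factors (chr1:72824503-72852474), had 1414, 353 and 549.8 CPM in Y541S and 50.1, 38.9 and 151 CPM in D542G (3.25 ± 0.74, adjusted p = 0.0149, edgeR). Y541S library 1 was far above the other libraries. Igfbp5, a binder abundant in basal cells, had 4339.7, 3517 and 3802 CPM in Y541S and 1281, 971 and 2404 CPM in D542G (1.31 ± 0.26, adjusted p = 0.00851, edgeR). Irs1, the adaptor of the receptor, had 19.4, 13.2 and 10.6 CPM in Y541S and 4.89, 5.84 and 6.19 CPM in D542G (1.34 ± 0.24, adjusted p = 0.00605, edgeR). Neither gene overlapped between genotypes. The clearance receptor Igf2r was higher by 0.96, Igfbp4 is given above, and Igfbp6 was lower by 1.02 on the log2 scale. Without D542G library 2 the count was 2 higher and none lower. The test was missed by Igfbp6 without D542G library 1 (adjusted p 0.117), and Igf2r and Igfbp6 without D542G library 2 (0.0677 to 0.131). A call was lacking for Igfbp6 without D542G library 3 (0.0505), and Igfbp6 without Y541S library 1 (0.123). The adjusted p exceeded the threshold for Igfbp6 without Y541S library 2 (0.0576), and Igfbp6 without Y541S library 3 (0.164). Among other settings, calls ended under removal of the length trend for Igf2r and Igfbp6 (0.0572 to 0.146), and a fit of all 51 libraries for Igfbp6 (0.257).

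In interstitial matrix 3 of 22 tested members were higher and none lower, and 3 of 12 fibroblast markers were higher, Col1a1 standing in both lists, against 6.21% higher over all genes. Fbn1, the fibrillin of microfibrils, had 376, 322 and 374 CPM in Y541S and 109, 84.4 and 143 CPM in D542G (1.66 ± 0.22, adjusted p = 0.00159, edgeR). Col1a1, the main chain of type I collagen, had 152, 216 and 128 CPM in Y541S and 63.3, 45.9 and 21.8 CPM in D542G (1.92 ± 0.55, adjusted p = 0.0379, edgeR). Y541S was above D542G throughout in both. Col6a3 was higher by 1.58, the matrix glycoprotein Fbln1 by 1.26 and the proteoglycan Dcn by 0.87. Col1a1 and Dcn, both called higher, are defining fibroblast markers, as are Pdgfra and Lum, which were not called. Pdgfra had 11.3, 23.4 and 21.5 CPM in Y541S and 16.2, 14.2 and 6.62 CPM in D542G. Lum had 15.8, 27.4 and 13.1 CPM in Y541S and 38.4, 21.1 and 7.15 CPM in D542G, and both overlapped. The summed fibroblast markers, given above, were higher in every Y541S library than in any D542G library. Whether fibroblasts in the sort had a part was not tested. No longer called were Fbln1 without D542G library 1 (adjusted p 0.0836), and Col1a1, Col6a3, Fbln1 and Dcn without D542G library 2 (0.113 to 0.173). The threshold was missed by Col1a1, Col6a3 and Dcn without D542G library 3 (0.0772 to 0.114), and Col1a1, Col6a3, Fbln1 and Dcn without Y541S library 1 (0.0648 to 0.149). Calls were lost for Col1a1, Col6a3 and Dcn without Y541S library 2 (0.0848 to 0.109), and Col1a1, Col6a3 and Fbln1 without Y541S library 3 (0.052 to 0.121). Calls also ended under removal of the length trend for Col1a1, Col6a3 and Dcn (0.0818 to 0.0941), and a fit of all 51 libraries for all 5 named here (0.0527 to 0.308).

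Milk and alveolar genes gave 5 of 13 higher in Y541S and none lower, against 6.21% higher over all genes, but not evenly. Their median was 1.02. Csn2, the beta casein (chr5:87692624-87699630), had 1343, 963 and 11 CPM in Y541S and 22.8, 63.5 and 7.11 CPM in D542G, and Csn1s1, an alpha casein, 274, 324 and 5.77 CPM in Y541S and 4.11, 15.7 and 0.893 CPM in D542G. Y541S libraries 1 and 2 were far above the rest, and Y541S library 3 lay inside the D542G range. The log2 differences of 4.63 ± 1.25 and 4.87 ± 1.29 (adjusted p = 0.0295 and 0.0273, edgeR) rest on those libraries, and without them together the values were -1.51 and -0.26. Fasn and Plin2 were higher in all 3 libraries. Fasn, the fatty acid synthase, had 545, 469 and 423 CPM in Y541S and 243, 164 and 294 CPM in D542G (1.02 ± 0.22, adjusted p = 0.0121, edgeR). Plin2, a coat protein of lipid droplets, had 214, 221 and 150.3 CPM in Y541S and 76.0, 106 and 119.7 CPM in D542G (0.95 ± 0.23, adjusted p = 0.0171, edgeR), while Xdh, needed for the secretion of milk fat, was higher by 0.83 with overlap. The count was 1 without Y541S library 1 or 2 and 6 without Y541S library 3. It was 2 without any 1 of the D542G libraries, 1 in a fit of all 51 libraries, 2 in a fit of the 6 alone and 3 after removal of the length trend. No call remained for Csn2, Csn1s1 and Plin2 without D542G library 1 (adjusted p 0.0657 to 0.0837), and all 5 named here without D542G library 2 (0.0564 to 0.11). Short of the threshold fell Csn2, Csn1s1 and Xdh without D542G library 3 (0.0666 to 0.0864), and Csn2, Csn1s1, Plin2 and Xdh without Y541S library 1 (0.0681 to 0.0887). Not called were Csn2, Csn1s1, Plin2 and Xdh without Y541S library 2 (0.0647 to 0.11). Settings other than these that ended calls were removal of the length trend for Fasn and Xdh (0.0925 to 0.134), a fit of the 6 libraries alone for Csn2, Csn1s1 and Xdh (0.0659 to 0.101), and a fit of all 51 libraries for Csn2, Csn1s1, Plin2 and Xdh (0.0509 to 0.113).

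Of 34 proliferation genes only 4 passed the test, all higher in Y541S, against 6.21% higher over all genes. Yet the 34 had the highest median of the 37 lists, 1.61. Their summed level was 1428, 1257 and 2133 CPM in Y541S and 749, 645 and 522 CPM in D542G with giredestrant, so that the groups did not overlap. With vehicle the order was the other way, at 1365, 1282 and 1715 CPM in Y541S and 2296, 3918 and 2675 CPM in D542G. WT with giredestrant spread over 449, 258 and 1633 CPM. Mki67, the marker of cycling cells, had 4.8, 9.57 and 31.1 CPM in Y541S and 3.45, 3.06 and 2.02 CPM in D542G (2.41 ± 0.71, adjusted p = 0.0434, edgeR). The mitotic motor Kif11 had 26.5, 26.5 and 51.1 CPM in Y541S and 9.26, 8.38 and 2.81 CPM in D542G (2.35 ± 0.70, adjusted p = 0.044, edgeR). In both, Y541S library 3 was the highest and the groups did not overlap. The checkpoint kinase Bub1b and the transcription factor Foxm1 were higher by 2.12 and 1.92. The count was 0 after removal of the length trend, 1 without Y541S library 1 and 0 without any other of the 6 libraries, and 20 in a fit of the 6 libraries alone. The medians over these settings were 1.25 to 1.83.

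Basal identity genes did not move as a block. Of 20 tested, 3 were higher and 2 lower, against 6.21% and 4.04% over all genes, with a median of 0.32. The keratin Krt17 had 2311, 3577 and 3510.5 CPM in Y541S and 6341, 7659.6 and 12001 CPM in D542G (-1.48 ± 0.34, adjusted p = 0.016, edgeR), and Krt5 had 1948, 1822 and 2217 CPM in Y541S and 2640.1, 2979.7 and 3918 CPM in D542G (-0.68 ± 0.20, adjusted p = 0.044, edgeR). The D542G libraries were the higher ones throughout. Krt14 lay at -0.84 (adjusted p = 0.0793, edgeR) and the basal transcription factor Trp63 at 0.54 (adjusted p = 0.0755, edgeR), neither called. Myh11, the smooth muscle myosin, had 2130.0, 2124 and 2097 CPM in Y541S and 742, 543 and 1663 CPM in D542G (1.09 ± 0.32, adjusted p = 0.0389, edgeR), with D542G library 3 close to Y541S. Itga6 and Snai2 were the other members called higher. Myh11 was the only 1 of 16 contractile genes called, against 10.2% called over all genes. Of 12 genes of epithelial to mesenchymal transition 3 were higher and 1 lower, against the same 6.21% and 4.04%. Snai2, a repressor also typical of basal cells, had 207, 151 and 161 CPM in Y541S and 92.8, 74.8 and 108 CPM in D542G (0.90 ± 0.17, adjusted p = 0.0064, edgeR). Twist1, another such repressor, was higher by 1.37, the cadherin Cdh2 was higher by 1.83, and the ligand Tgfb1 was the lower one. Calls ended for Myh11, Twist1 and Cdh2 without D542G library 1 (adjusted p 0.0551 to 0.117), and Krt5, Myh11, Twist1 and Cdh2 without D542G library 2 (0.0906 to 0.157). An adjusted p above the threshold was found for Krt5, Twist1 and Cdh2 without D542G library 3 (0.105 to 0.125), and Krt17, Krt5, Myh11, Twist1 and Cdh2 without Y541S library 1 (0.0681 to 0.164). The test was missed by Krt5, Myh11 and Twist1 without Y541S library 2 (0.0837 to 0.116), and Krt5, Myh11 and Cdh2 without Y541S library 3 (0.0695 to 0.172). Other settings that ended a call were removal of the length trend for Krt5, Myh11 and Cdh2 (0.0765 to 0.129), a fit of the 6 libraries alone for Krt5, Myh11 and Twist1 (0.0652 to 0.0982), and a fit of all 51 libraries for all 6 named here (0.0882 to 0.6). Beyond the libraries, calls ended under a fit with no filter for Twist1 (0.0548).

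Il33, Slpi and Il23a were among the genes with the largest falls in Y541S, picked only from genes whose libraries did not overlap. The alarmin Il33 (chr19:29925114-29960718) had 12.8, 65.3 and 43.7 CPM in Y541S and 440.0, 433 and 86.7 CPM in D542G, a log2 difference of -2.98 ± 0.57 (adjusted p = 0.00724, edgeR). D542G library 3 was far below the other D542G libraries and only just above Y541S. WT with giredestrant had 2.67, 1.48 and 3.62 CPM, so that both mutants were above WT. Il23a, the subunit specific to interleukin 23, had 3.19, 7.17 and 7.79 CPM in Y541S and 34.7, 34.0 and 35.0 CPM in D542G (-2.52 ± 0.54, adjusted p = 0.0114, edgeR). Slpi, a protease inhibitor of secretions, had 125, 171 and 387 CPM in Y541S and 907, 1833 and 1863 CPM in D542G (-2.76 ± 0.72, adjusted p = 0.0258, edgeR). In these 2 genes the groups were apart. WT with giredestrant had 2166, 2561 and 720.5 CPM of Slpi, 2 libraries above and 1 below the D542G range. The chemokine Cxcl14 was lower by 1.26 on the log2 scale. With Il33 it made 2 lower of 18 tested chemokines and cytokines, against 4.04% over all genes, with none higher.

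Ly6d, a surface antigen of epithelial cells, had 10.4, 37.8 and 29.3 CPM in Y541S and 154, 163 and 63.9 CPM in D542G (-2.30 ± 0.44, adjusted p = 0.00739, edgeR). Crabp1, a carrier of retinoic acid, had 9.37, 6.36 and 4.74 CPM in Y541S and 51.3, 63.3 and 16.6 CPM in D542G (-2.68 ± 0.61, adjusted p = 0.0145, edgeR). In each D542G library 3 was the lowest of its group. Gfra2, a co-receptor of neurturin, had 19.6, 50.1 and 36.0 CPM in Y541S and 179, 214 and 175 CPM in D542G (-2.43 ± 0.62, adjusted p = 0.0235, edgeR), with even D542G libraries. Xkr4, Lingo2 and Frmpd4, known from neurons, were lower by 2.46, 2.42 and 2.52 on the log2 scale. R3hdml was also lower, at -2.75, but 85.5% of its span is overlapped by other genes and its count is uncertain. A call was lacking for Slpi, Crabp1, Frmpd4, Xkr4, Gfra2, Lingo2 and Cxcl14 without D542G library 2 (adjusted p 0.0687 to 0.195), and Slpi, Frmpd4, Xkr4, Gfra2, Lingo2 and Cxcl14 without Y541S library 1 (0.0621 to 0.0989). The adjusted p exceeded the threshold for Slpi, Crabp1 and Frmpd4 without Y541S library 2 (0.0529 to 0.109), and Crabp1, Frmpd4, Xkr4, Gfra2 and Lingo2 without Y541S library 3 (0.0529 to 0.0747). Among other settings, calls ended under a fit of all 51 libraries for Cxcl14 (0.245). The luminal marker sums were higher in D542G libraries 1 and 2, as given above, and their part in these differences was not tested.

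Of the 4 inhibitor of differentiation genes, early targets of bone morphogenetic proteins, Id1, Id2 and Id3 were lower in Y541S, and Id4 lay at -0.12 without a call. Of 21 members of the transforming growth factor beta and BMP pathways, 4 were lower in Y541S, against 4.04% over all genes, and 1 was higher. Id3 had 200.2, 385 and 414 CPM in Y541S and 1542, 1867 and 1363 CPM in D542G (-2.26 ± 0.53, adjusted p = 0.0167, edgeR), and Id1 had 29.6, 54.5 and 39.5 CPM in Y541S and 164, 164 and 133 CPM in D542G (-1.90 ± 0.50, adjusted p = 0.026, edgeR). The genotypes were apart, and WT with giredestrant, with 1122, 2046 and 588 CPM of Id3, was above Y541S in every library. Id2 was lower by 0.80 and the ligand Tgfb1 by 0.73 on the log2 scale. Tgfbr3, the co-receptor betaglycan, was higher by 0.87. No longer called were Id1 without D542G library 1 (adjusted p 0.0523), and Id3, Id1, Id2 and Tgfb1 without D542G library 2 (0.0514 to 0.085). The threshold was missed by Id3 and Id1 without Y541S library 1 (0.0719 to 0.1), and Id1 without Y541S library 3 (0.0766). Calls also ended under removal of the length trend for Id1 (0.0591), removal of length and GC trends for Id2 and Tgfbr3 (0.0523 to 0.0557), and a fit of all 51 libraries for Id2, Tgfb1 and Tgfbr3 (0.0858 to 0.144).

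Wnt genes went both ways, with 4 of 22 higher and 3 lower, against 6.21% and 4.04% over all genes. The secreted inhibitor Wif1 had 796, 478 and 386 CPM in Y541S and 176, 132 and 188 CPM in D542G (1.73 ± 0.29, adjusted p = 0.00392, edgeR). The receptor Fzd7 had 306, 233 and 205 CPM in Y541S and 134, 95.5 and 126 CPM in D542G (1.06 ± 0.17, adjusted p = 0.00398, edgeR). Neither overlapped. The feedback gene Axin2 was higher by 1.20 and Lgr4, a receptor for R-spondins, by 0.51. The ligand Wnt11 had 70.7, 128 and 130.4 CPM in Y541S and 285, 341 and 480.4 CPM in D542G (-1.75 ± 0.46, adjusted p = 0.0259, edgeR), and Lgr5, a stem cell receptor for R-spondins, had 81.7, 143 and 190.1 CPM in Y541S and 289.5, 311 and 382 CPM in D542G (-1.25 ± 0.33, adjusted p = 0.0284, edgeR). D542G was the higher group in all libraries of both. The ligand Wnt10a was lower by 1.20 on the log2 scale. Calls were lost for Axin2 and Lgr4 without D542G library 1 (adjusted p 0.0633 to 0.111), and Axin2, Lgr4, Wnt11 and Lgr5 without D542G library 2 (0.0734 to 0.144). No call remained for Wnt11 and Lgr5 without D542G library 3 (0.0644 to 0.0654), and Axin2, Lgr4, Wnt11, Wnt10a and Lgr5 without Y541S library 1 (0.0588 to 0.137). Short of the threshold fell Wnt11 and Lgr5 without Y541S library 2 (0.0585 to 0.0705), and Axin2, Lgr4 and Wnt11 without Y541S library 3 (0.0528 to 0.0702). Settings other than these that ended calls were removal of the length trend for Axin2 and Lgr4 (0.0651 to 0.249), a fit of the 6 libraries alone for Axin2 and Lgr4 (0.0588 to 0.0825), and a fit of all 51 libraries for Wif1, Axin2, Lgr4, Wnt10a and Lgr5 (0.0849 to 0.22). Other settings that ended a call were thinned counts for Axin2 (0.0517).

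In the epidermal growth factor receptor pathway 3 of 12 were higher and 1 lower, against 6.21% and 4.04% over all genes. The ligand neuregulin Nrg2 had 34.5, 28 and 30.6 CPM in Y541S and 4.67, 5.84 and 10.3 CPM in D542G (2.15 ± 0.49, adjusted p = 0.0156, edgeR), the ligand Ereg was higher by 1.17 and the receptor Egfr by 0.61. Hbegf, another ligand, had 159.5, 168 and 125 CPM in Y541S and 302, 317 and 283 CPM in D542G (-1.001 ± 0.24, adjusted p = 0.0188, edgeR). In both ligands the 2 genotypes did not overlap. Of 14 Notch genes 3 were higher, against 6.21% over all genes. Among them the receptor Notch1 had 132, 159.9 and 101 CPM in Y541S and 69.6, 67.3 and 47.7 CPM in D542G (1.08 ± 0.23, adjusted p = 0.0117, edgeR). Notch2 was higher by 0.58 and the ligand Dll1 by 0.58. Not called were Nrg2, Ereg and Dll1 without D542G library 1 (adjusted p 0.0514 to 0.11), and all 7 named here without D542G library 2 (0.0517 to 0.182). Calls ended for Ereg, Hbegf, Notch2 and Dll1 without Y541S library 1 (0.055 to 0.151), and Egfr, Notch1, Notch2 and Dll1 without Y541S library 2 (0.0531 to 0.107). An adjusted p above the threshold was found for Ereg and Hbegf without Y541S library 3 (0.0725 to 0.102). Beyond the libraries, calls ended under removal of the length trend for Ereg, Egfr, Notch2 and Dll1 (0.0793 to 0.302), removal of length and GC trends for Notch1 (0.0531), and a fit of the 6 libraries alone for Notch2 and Dll1 (0.0563 to 0.0775). Among other settings, calls ended under a fit of all 51 libraries for Ereg, Egfr and Dll1 (0.0733 to 0.474).

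Of 19 genes of oxidative stress and glutathione 6 were lower in Y541S and none higher, against 4.04% lower over all genes. Mt1, a metallothionein, had 1646, 1456 and 1701 CPM in Y541S and 3236, 4365 and 4968 CPM in D542G (-1.40 ± 0.35, adjusted p = 0.0219, edgeR). The peroxidase Gpx1 had 523, 499 and 610.2 CPM in Y541S and 859.6, 889 and 866 CPM in D542G (-0.69 ± 0.12, adjusted p = 0.00536, edgeR). Y541S was below D542G in every library. Gpx4, Gstp1 and Sod1 were lower by 0.67, 0.48 and 0.42 on the log2 scale. Mt2, at -1.64, is overlapped over 82.8% of its span and is uncertain. After removal of the length trend 4 were lower and 1 higher, and without D542G library 2 the count was 2, without Y541S library 2 it was 3. The test was missed by Mt1, Mt2, Gstp1 and Sod1 without D542G library 2 (adjusted p 0.0523 to 0.0845), and Mt1 without D542G library 3 (0.0506). A call was lacking for Mt1 without Y541S library 1 (0.0661), and Mt1, Gstp1 and Sod1 without Y541S library 2 (0.0584 to 0.0702). The adjusted p exceeded the threshold for Mt1 without Y541S library 3 (0.0568). Calls also ended under removal of the length trend for Mt1 and Gstp1 (0.0594 to 0.105), a fit of the 6 libraries alone for Gstp1 and Sod1 (0.0563 to 0.0803), and a fit of all 51 libraries for Gstp1 and Sod1 (0.0538 to 0.0982). Settings other than these that ended calls were a fit with no filter for Sod1 (0.0703).

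Of 12 tested mitochondrially encoded genes 6 were lower and none higher, against 4.04% lower over all genes, with a median of -0.98. Summed over all 13 listed, the level was 6307, 5372 and 6591 CPM in Y541S and 12672, 14622 and 7657 CPM in D542G. D542G libraries 1 and 2 were well above library 3 and above WT, which had 6814, 8674 and 8767 CPM with giredestrant. The complex I subunit mt-Nd1 had 1397, 1180.2 and 1491 CPM in Y541S and 3414, 3993 and 1968 CPM in D542G (-1.21 ± 0.26, adjusted p = 0.0119, edgeR). The count was 0 without D542G library 2, 2 without Y541S library 1 or 2, 4 without Y541S library 3 or in fits of the 6 or of all 51 libraries, and 2 after removal of the length trend. The median over 41 cytosolic ribosomal protein genes was -0.38. Of them 10 were lower, against 4.04% over all genes, and 1 after removal of the length trend. Leaving out 1 library gave 1 to 9, with 1 without D542G library 2 or Y541S library 2 and 4 without D542G library 3 or Y541S library 1 or 3. A fit of the 6 libraries alone gave 0, and fits of all 51 libraries or with no filter gave 4. By edgeR none of 29 nuclear genes of oxidative phosphorylation was called, with a median of -0.18, nor any of 20 of glycolysis and hypoxia.

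**Figure D4:**
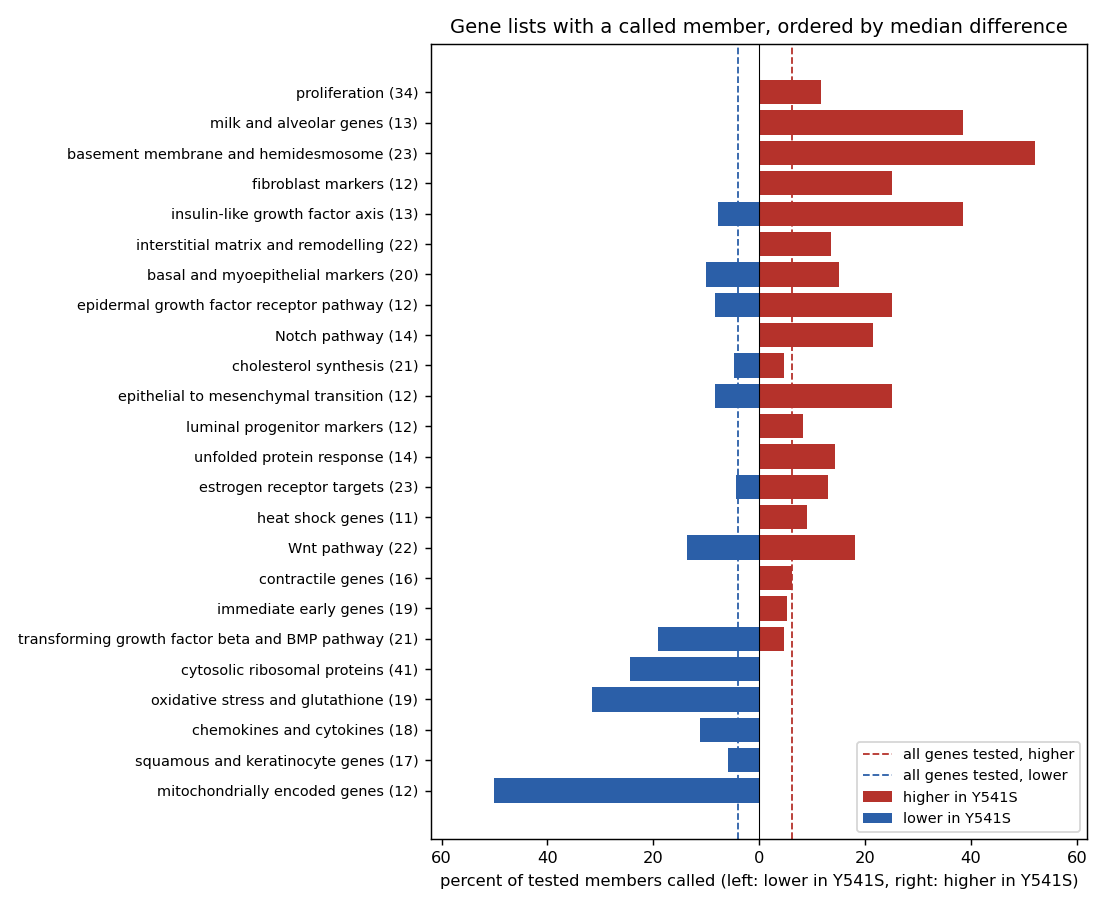
Share of the tested members of each gene list called higher (right, red) or lower (left, blue) in Y541S with giredestrant, for the 24 of 37 lists with a called member, ordered by their median difference, with the number tested in brackets. Dashed lines are the shares over all genes, 6.21% higher and 4.04% lower. Basement membrane genes reach 12 of 23 on the right and mitochondrially encoded genes 6 of 12 on the left.

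The giredestrant effect itself differed between the genotypes for 207 of 17173 genes (1.21%) by edgeR, 168 (0.978%) with a more positive effect in Y541S and 39 (0.227%) with a more negative one. Basement membrane genes made 7 of the 168, of 23 tested. Lama1 had 802, 511 and 621 CPM with giredestrant and 243, 218 and 282 CPM with vehicle in Y541S. In D542G it had 56.0, 27.6 and 107 CPM with giredestrant and 203, 419 and 526 CPM with vehicle. Giredestrant libraries were thus the higher ones in Y541S and the lower ones in D542G. The log2 effects were 1.34 ± 0.49 (adjusted p = 0.0767) in Y541S and -2.65 ± 0.51 (adjusted p = 0.00263) in D542G, and their difference was 3.99 ± 0.71 (adjusted p = 0.0278, edgeR). Col4a1 had 3809.9, 2630.5 and 3298 CPM with giredestrant and 1111, 773 and 1288 CPM with vehicle in Y541S, against 422, 301 and 1087 CPM with giredestrant and 671, 1447 and 2045 CPM with vehicle in D542G. Its difference of effects was 2.84 ± 0.67 (adjusted p = 0.0492, edgeR). Col4a2, Lamc1, Lamb1, Lama4 and Hspg2 were the others, with differences of 1.64 to 2.36. Without 1 library the adjusted p for Lama1 was 0.01 to 0.0831, and it was 0.0679 after removal of the length trend.

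Col9a1 had 164, 100.3 and 140.0 CPM with giredestrant and 99.1, 47.9 and 108 CPM with vehicle in Y541S, against 4.41, 3.88 and 8.57 CPM with giredestrant and 23.3, 89.5 and 127 CPM with vehicle in D542G, a difference of effects of 4.51 ± 0.86 (adjusted p = 0.033, edgeR). Mki67 had 4.8, 9.57 and 31.1 CPM with giredestrant and 4.36, 2.31 and 6.3 CPM with vehicle in Y541S, against 3.45, 3.06 and 2.02 CPM with giredestrant and 7.88, 30.0 and 19.8 CPM with vehicle in D542G (4.60 ± 1.0, adjusted p = 0.0417, edgeR). In both genes the D542G effect was the larger, at -3.89 and -2.83, and the Y541S effects of 0.62 and 1.77 were not called. Without 1 library the adjusted p of the difference was 0.0119 to 0.119 for Col9a1 and 0.0229 to 0.135 for Mki67. Fbn1 went up in Y541S, by 1.07 ± 0.21 (adjusted p = 0.00444), and down in D542G, at -0.80 ± 0.21 (adjusted p = 0.0127), with a difference of 1.87 (adjusted p = 0.0242, edgeR). The homeobox gene Meox1, with 29.5% of its span overlapped, had 10.1, 13.2 and 11.6 CPM with giredestrant and 21.9, 22.9 and 26.4 CPM with vehicle in Y541S, against 21.6, 25.6 and 24.5 CPM with giredestrant and 18.4, 16.4 and 20.8 CPM with vehicle in D542G (-1.37 ± 0.23, adjusted p = 0.0242, edgeR). Il33 was higher with giredestrant in both, by 3.91 ± 0.63 in Y541S and 3.71 ± 0.59 in D542G, with a difference of 0.20 (adjusted p = 0.916, edgeR). The count of 207 is the least stable here. It was 17 after removal of the length trend and 723 in a fit of these 4 groups alone. Leaving out 1 library gave 0 without D542G vehicle library 2 or Y541S vehicle library 1 or 2, 1 to 28 without any other but 2, and 461 and 523 without D542G giredestrant library 3 or D542G vehicle library 1.

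**Figure D5:**
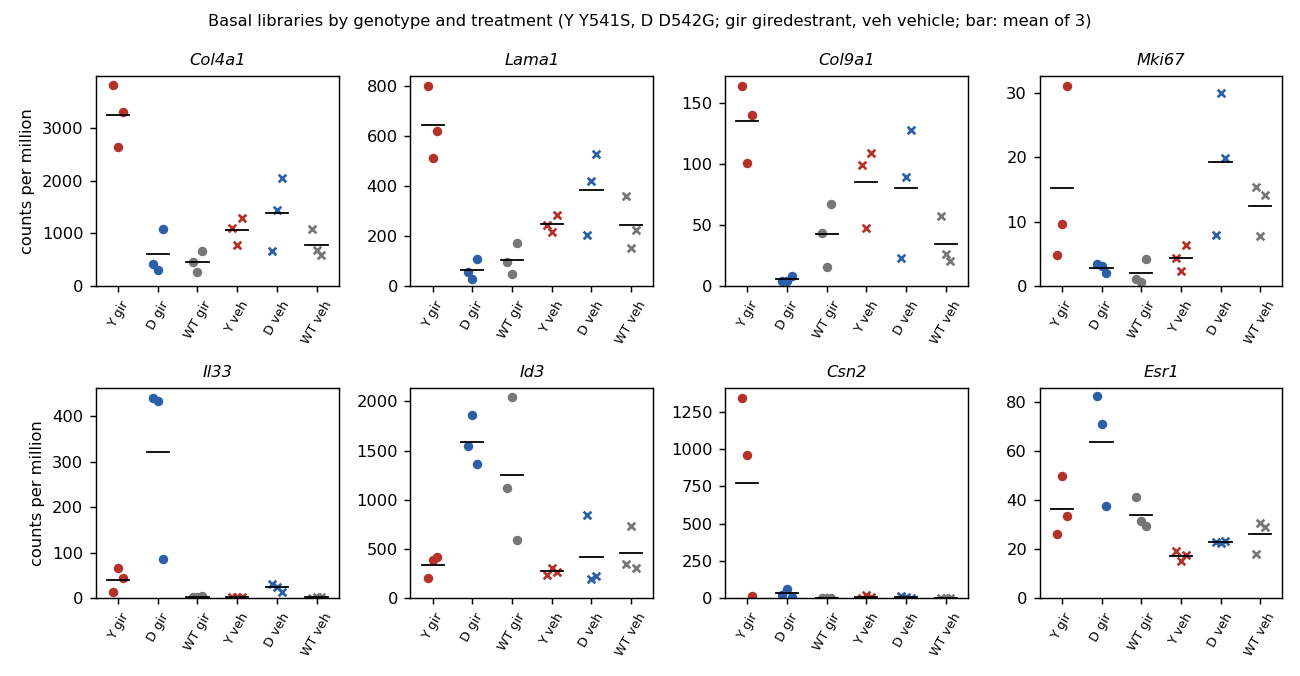
Level of 8 genes in the 18 Basal libraries, in CPM from 0, 1 point per library and a bar for the mean of 3. Circles are giredestrant and crosses vehicle, red Y541S, blue D542G and grey WT. Col4a1 and Lama1 are highest in Y541S with giredestrant, Il33 in D542G with giredestrant, and Csn2 in 2 Y541S libraries.

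In ML cells of the same genotypes with giredestrant 1172 of 18247 genes (6.42%) differed between Y541S and D542G. Whether the genotype difference was itself different in Basal cells was tested in 1 model, and 3 of 18247 genes (0.0164%) passed, 2 (0.011%) more positive in Basal and 1 (0.00548%) more negative, with 1428 at an unadjusted p under 0.05. DESeq2 called 96. With Basal and ML libraries of the same genotype and number as a block, 9 passed, the 3 among them. Mfge8, a milk fat globule protein that bridges dying cells to phagocytes, had 3572, 4240.1 and 3775 CPM in Y541S and 3027, 2616 and 2703 CPM in D542G among Basal cells. Among ML cells it had 2169, 2850.0 and 3440.3 CPM in Y541S and 6873, 9671 and 9104 CPM in D542G. Y541S was thus the higher genotype in Basal libraries, without a call (0.47, adjusted p = 0.184, edgeR), and the lower in ML (-1.60, adjusted p = 0.000349, edgeR), a difference of 2.09 ± 0.25 (adjusted p = 0.00099, edgeR; 0.00766 with the block).

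Tsc22d4, a leucine zipper protein, had 77.7, 78.6 and 73.2 CPM in Y541S and 54.6, 54.5 and 63.3 CPM in D542G among Basal cells, and 50.3, 49.8 and 50.2 CPM in Y541S and 70.4, 78.6 and 76.6 CPM in D542G among ML cells. The scaffold Iqgap2 had 27.6, 49.0 and 39.9 CPM in Y541S and 54.4, 88.4 and 43.5 CPM in D542G among Basal cells, and 178, 175 and 98.1 CPM in Y541S and 60.1, 45.9 and 31.3 CPM in D542G among ML cells. The genotypes stood in opposite order in the 2 populations for both genes, with overlap for Iqgap2 in Basal cells. Their differences were 1.02 ± 0.17 and -2.36 ± 0.39 (adjusted p = 0.0431 each, edgeR). Both calls rest on most libraries, and the adjusted p reached 0.173 for Tsc22d4 and 0.161 for Iqgap2 without D542G Basal library 2. Tsc22d4 was not called after removal of the length trend (0.0715) or of the length and GC trends (0.0806), and Iqgap2 was not called in a fit of the 12 libraries compared alone (0.169). The count over all genes was 18 without Y541S ML library 3 and 5 without D542G Basal library 3. It was 1 without D542G Basal library 1 or 2, or Y541S Basal library 1 or 3. The same count came without D542G ML library 2 or 3, or Y541S ML library 1 or 2. With Y541S libraries 1 and 2 of Basal and ML all left out, 1 Y541S library remained in each population and all 3 calls ended. For Lama1 the Basal difference was 3.33 and the ML difference 3.47 (adjusted p = 0.0327, edgeR), with a difference of -0.12 (adjusted p = 0.996, edgeR).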

How the data were processed

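Bulk RNA-seq libraries were made with the Nextera XT kit from sorted mammary cells, per the labels' protocols. The authors deposited 1 table per library with raw counts per gene and, beside them, RPKM values (scaled to gene width and library size, per the file headers). Only the counts were tested. Per the submitters' processing notes the genome build was GRCm38, whereas no aligner, counter or annotation is given in the labels. Gene IDs were named with GENCODE M21, which matched 52489 of 52636. Samples were grouped by title. The source name label, mature luminal for every sample, was set aside for the Basal libraries.

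Genes passing filterByExpr were tested with edgeR's quasi-likelihood test (edgeR 4.0.16, limma 3.58.1, R 4.3.3) after TMM scaling, with Benjamini-Hochberg adjustment over all genes tested and a threshold of 0.05. The model held the 18 Basal libraries, with 1 mean for each of 6 groups. The Basal against ML difference and the ML comparison used the 24 giredestrant libraries of both mutants. These also held the LP and N libraries, which shared in the estimate of the spread. CPM values are TMM-scaled, each log2 difference is given ± its standard error, and a list's summed CPM adds its members in 1 library. Genes with over 50% of their span overlapped by another are called uncertain. Total counts were 21.4 to 60.1 M over the series, and chi-square per degree of freedom between replicates was 35.9 to 120, so no 2 libraries of a group differed by as little as sampling noise.

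Alternatives were DESeq2 1.42.0 and its size factors, no filter, other sets of libraries in the fit, thinned counts, a replicate block, libraries left out, and length trends removed. The last, each library's trend over transcript length (a spline with 4 degrees of freedom, also with GC content), was chosen after seeing the data. Same-numbered Basal and ML libraries of 1 genotype deviated together (r = 0.105 to 0.282 over genes) so the fit with that block is given beside the one without it. The test was tried on simulated data for Y541S against D542G with giredestrant, with 16872 genes. It called 45 of 50 genes raised 4-fold and 30 of 50 raised 2-fold. It also called 41 of 50 lowered 4-fold and 33 of 50 lowered 2-fold, and 4 others. The simulated libraries held no length trend, so these counts do not describe errors under such a trend.

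The members and lists were chosen with earlier results of these data known. By rule, named genes were Esr1, the 10 largest called rises and falls without overlap at 10 CPM or more, 5 each at 100 CPM or more, up to 3 called members of each list, and the 3 largest each way in each difference of differences. Predicted genes, pseudogenes, ribosomal, histone, receptor segment and sex-linked marker genes were left out. Of 79 genes a part is printed, and a few list members are not reported here, and further list members were named after their values were seen. Promoter windows are RefSeq's.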

Additional observations from a re-analysis of the deposited data

Results flagged for a closer look

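The first 6 genes are given because the giredestrant effect differed between Y541S and D542G Basal cells by a test of that difference (edgeR). The difference was 4.51 for Col9a1 (adjusted p = 0.033), 3.99 for Lama1 (0.0278) and 4.60 for Mki67 (0.0417), where giredestrant libraries were lower in D542G and not in Y541S. It was -1.37 for Meox1 (adjusted p = 0.0242), where giredestrant libraries were lower in Y541S. Ranbp9, a scaffold protein, had 35.9, 48.4 and 26.5 CPM with giredestrant and 82.4, 78.5 and 82.9 CPM with vehicle in Y541S, against 106, 65.3 and 74.4 CPM with giredestrant and 72.8, 71.2 and 71.2 CPM with vehicle in D542G, a difference of -1.30 (adjusted p = 0.0362, edgeR). The small nucleolar RNA host Snhg1 had 7.27, 5.75 and 7.06 CPM with giredestrant and 10.2, 10.3 and 11.7 CPM with vehicle in Y541S, against 11.4, 11.7 and 11.9 CPM with giredestrant and 7.42, 5.88 and 9.15 CPM with vehicle in D542G, a difference of -1.29 (adjusted p = 0.0348, edgeR). Leaving out any 1 of the 3 D542G vehicle libraries but the first, any Y541S vehicle library, D542G giredestrant library 2 or Y541S giredestrant library 1 ended all 6 calls, with adjusted p up to 0.119 for Col9a1, 0.0831 for Lama1, 0.135 for Mki67, 0.079 for Meox1, 0.107 for Ranbp9 and 0.107 for Snhg1. After removal of the length trend Meox1 (0.0467) and Ranbp9 (0.0478) were called, and Col9a1, Lama1, Mki67 and Snhg1 were not (0.0679 to 0.0695). Meox1 was not called in a fit of all 51 libraries (0.287), nor was Ranbp9 (0.0524).

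The other 3 genes are given because the genotype difference was not the same in Basal and ML cells by a test of that difference (edgeR). It was 2.09 for Mfge8 (adjusted p = 0.00099), 1.02 for Tsc22d4 (0.0431) and -2.36 for Iqgap2 (0.0431). Mfge8 was called without any 1 of the 12 libraries, with adjusted p of 0.000268 to 0.00812. It was not called without Y541S libraries 1 and 2 of both Basal and ML, which leaves 1 Y541S library in each population. Tsc22d4 was not called after removal of the length trend (0.0715) or of the length and GC trends (0.0806), nor Iqgap2 in a fit of the 12 libraries compared alone (0.169).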

How the results depend on the processing

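For Y541S minus D542G with giredestrant, 1760 genes were called, 2829 by DESeq2 and 954 with the length trend or the length and GC trends removed. The genes higher were 438 and 433 with those trends removed, and the genes lower were 1288 by DESeq2 and 411 in a fit of the 6 libraries alone. Leaving out 1 library gave 310 to 1673 genes, 206 to 998 higher and 104 to 675 lower. Without Y541S libraries 1 and 2 together, 22 remained in number, 18 higher and 4 lower, and the fit takes the lone library to vary like the others. Csn1s1 and Csn2 then turned to -0.26 and -1.51. With vehicle, 123 genes were called by DESeq2, 14 in a fit of all 51 libraries and 12 with no filter, against 0. The difference of giredestrant effects gave 1229 by DESeq2, 723 with the groups compared alone, 17 and 15 with the length and the length and GC trends removed, 2 without Y541S libraries 1 and 2 together, and 0 to 523 without 1 library. The difference between Basal and ML gave 96 by DESeq2, 18 with no filter, 16 with all 51 libraries and 10 with the groups compared alone. It gave 9 with the replicate block, 7 with length and GC trends removed, 5 with thinned counts, and 1 to 18 without 1 library. Its calls ended without Y541S libraries 1 and 2 of both Basal and ML, which leaves 1 Y541S library in each population. The causes were not tested. With a block for replicate number the Basal giredestrant comparison of Y541S with D542G gave 1509 genes, 1434 of them shared, and of the genes named Mki67, Bub1b, Kif11, Foxm1, Krt5, Col1a1, Col6a3, Dll1, Igfbp6 and Frmpd4 were not called (adjusted p 0.0506 to 0.067). Same-numbered Y541S and D542G libraries did not pair (r = -0.052, 0.075 and 0.096), nor did every library correlate best with its own number. Among the 6 giredestrant libraries compared those of Y541S were the deepest, and thinning all 18 Basal libraries to 1 total gave 1748.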

Other observations

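Of 14 genes of the unfolded protein response 2 were higher in Y541S, against 6.21% over all genes, the chaperone Hsp90b1 and the disulfide isomerase Pdia4. Hsp90b1 had 474, 463 and 549.7 CPM in Y541S and 299, 263 and 356 CPM in D542G (0.69 ± 0.18, adjusted p = 0.0243, edgeR), without overlap. Of 21 genes of cholesterol synthesis 1 was higher and 1 lower, against 10.2% called over all genes, and the lower one is given. Fdft1, the squalene synthase, had 18.3, 17.4 and 22.5 CPM in Y541S and 28.9, 29.2 and 29.0 CPM in D542G (-0.59 ± 0.14, adjusted p = 0.0161, edgeR). Every Y541S library was below every D542G library. The threshold was missed by Hsp90b1 and Pdia4 without D542G library 1 (adjusted p 0.0588 to 0.126), and all 3 named here without D542G library 2 (0.0577 to 0.149). Calls were lost for all 3 named here without Y541S library 1 (0.0556 to 0.125), and Pdia4 and Fdft1 without Y541S library 2 (0.0573 to 0.0738). No call remained for Hsp90b1 and Pdia4 without Y541S library 3 (0.0802 to 0.123). Other settings that ended a call were a fit of the 6 libraries alone for Fdft1 (0.0532), a fit of all 51 libraries for Pdia4 (0.0992), and a fit with no filter for Pdia4 (0.0555). Beyond the libraries, calls ended under thinned counts for Pdia4 (0.0527).

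Of 17 squamous genes Sfn, which codes for 14-3-3 sigma, was lower, with 376, 476 and 483 CPM in Y541S and 732, 795 and 1072 CPM in D542G (-0.97 ± 0.27, adjusted p = 0.0338, edgeR). Of 12 luminal progenitor markers the collagen receptor Itga2 was higher, with 52.0, 56.1 and 79.6 CPM in Y541S and 23.1, 22.9 and 33.3 CPM in D542G (1.24 ± 0.33, adjusted p = 0.0294, edgeR). Neither overlapped between genotypes. Over all genes 6.21% were called higher and 4.04% lower, so 1 call in any list given here is near that share. Of 19 immediate early genes Egr2 was higher, with 422, 360.1 and 280.1 CPM in Y541S and 248, 208 and 242 CPM in D542G (0.60 ± 0.15, adjusted p = 0.0217, edgeR), and of 11 heat shock genes Hsph1 was higher by 1.002, with Y541S library 3 inside the D542G range. By edgeR no gene was called among 18 of the interferon response (median 0.68), 12 of antigen presentation, 12 immune, 8 pericyte, 6 adipocyte, 4 skeletal muscle and 5 Schwann cell markers. Short of the threshold fell Itga2 and Hsph1 without D542G library 1 (adjusted p 0.0815 to 0.0832), and all 4 named here without D542G library 2 (0.0786 to 0.147). Not called were Sfn without D542G library 3 (0.0931), and all 4 named here without Y541S library 1 (0.0524 to 0.17). Calls ended for Sfn, Itga2 and Egr2 without Y541S library 2 (0.056 to 0.0693), and Sfn and Itga2 without Y541S library 3 (0.0686 to 0.102). Among other settings, calls ended under removal of the length trend for Sfn, Itga2 and Hsph1 (0.0842 to 0.0929), a fit of the 6 libraries alone for Egr2 and Hsph1 (0.0584 to 0.107), and a fit of all 51 libraries for Sfn, Egr2 and Hsph1 (0.0549 to 0.15).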
